A study of Mus musculus with 2 samples.

Results

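The carbonic anhydrase genes described here are Car1, Car2, Car3, Car4, Car5b, Car7, Car8, Car9, Car12 and Car13, 10 genes of the 55246 loci in the deposited table. They were taken by gene name, after their reads in the 2 libraries had been seen, so their ratios describe how they were chosen and carry no test. The table holds 6 more genes of the family, and these were read as a separate list. The measurement was RNA sequencing of regulatory T cells (Treg cells, the Foxp3-dependent suppressive subset of CD4 T cells) from the lamina propria of the colon, the connective tissue below the gut epithelium, of female mice. One library came from the WT genotype and 1 from Exon2KO, the Foxp3 allele without exon 2, and the comparison asks how colonic Treg cells that carry this allele differ from WT. Age, strain, any treatment, the sorting gate and the number of mice behind each RNA are not given in the sources used here, and the lack of replicates leaves the spread between mice unmeasured.

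Carbonic anhydrases are zinc enzymes that convert carbon dioxide and water into bicarbonate and a proton, and back. Family members differ in where they work: in the cytosol, in mitochondria, or outside the cell on the surface membrane. In the colon the absorptive epithelial cells are a well-known site of these enzymes, where the bicarbonate and protons they supply serve salt exchange across the apical membrane. Red blood cells are another rich source, of Car1 and Car2 in particular.

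Depth was 16281133 reads for WT and 15412425 for Exon2KO. Reads are given as counts and as CPM, counts relative to a library size scaled by TMM, a method that sets the bulk of genes equal. Levels of different genes are compared only in FPKM, deposited values that adjust for gene length and depth. Each log2 ratio sets Exon2KO over WT after a prior count of 2 was added. Folds and 95% Clopper-Pearson intervals are computed without that prior, so a fold is not the exact power of the log2 ratio beside it. The intervals cover counting error alone and treat reads as independent. PCR copies of 1 molecule can each be read, so the intervals may be too narrow. The T cell genes Cd3e (5154 reads in WT and 5262 in Exon2KO) and Cd4 (4593 and 5367) were abundant in both libraries. Foxp3 had 6991 and 20946 reads, and such a gene-wide count is no check of the lost exon.

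The family split into a pair of genes with large differences and a remainder with smaller differences or few reads. Car1 and Car2 stood far higher in the Exon2KO library, Car5b was about 2.29-fold higher, and the other 7 genes had counting intervals that include no difference. With a minimum of 10 reads in WT and Exon2KO together, a ratio of at least 2-fold was reached by 3 members in the higher direction (Car1, Car2 and Car5b) and by 0 in the lower one. Over all 17363 loci with that many reads, 10.9% were at least 2-fold higher in Exon2KO and 9.39% at least 2-fold lower. Of the 10 members, 8 had 10 reads or more. Since the members were picked on this contrast, nothing is read from their share. The whole counting interval lay past 2-fold higher for 2 members, Car1 and Car2, against 3.44% of all loci compared, and past 2-fold lower for 0 members, against 3.32%.

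**Figure D1:**
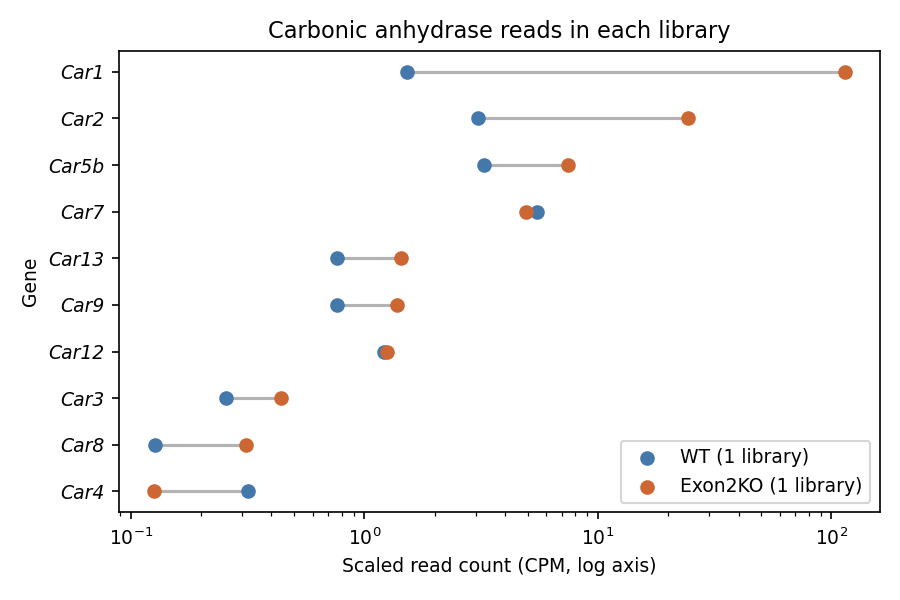
Scaled read count of each of the 10 carbonic anhydrase genes (rows) in CPM on a log axis, with 1 point for the WT library and 1 for the Exon2KO library joined by a grey line. Car1 moves from 1.53 to 114 CPM and Car2 from 3.06 to 24.3, while Car7 and Car12 have nearly coinciding points.

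Among the cytosolic enzymes, Car1 (ENSMUSG00000027556, chromosome 3, 14766216 to 14808368, minus strand, GRCm38) had 24 reads in WT and 1830 in Exon2KO, or 1.53 and 114 CPM. The log2 ratio was 6.11 (5.65 to 6.87), and the fold without the prior count was 74.9. Car1 encodes a cytosolic isoform best known from red blood cells and colon epithelium. Only 8 of the 17363 loci compared had a higher log2 ratio, so Car1 ranked 9 from the top, an order that includes the prior count. In FPKM, Car1 went from 1.22 to 92.2, which moved it from rank 11169 to rank 714 among all loci of its library. GENCODE M21 lists 3 transcripts of Car1, of which 1 starts at 14778459 and the other two start further upstream, at 14808368 and 14808365. The counts are summed over the gene, so the use of these starts cannot be told apart.

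Car2 (ENSMUSG00000027562, chromosome 3, 14886273 to 14900770, plus strand) encodes the fast and widely expressed cytosolic isoform. Its 48 reads in WT and 389 in Exon2KO gave a log2 ratio of 2.94 (2.56 to 3.46), and a fold of 7.96 without the prior count. Its counting interval does not overlap that of Car1. In the WT library Car1 and Car2 had similar levels per length, 1.22 and 1.26 FPKM. In the Exon2KO library they were at 92.2 and 10.1 FPKM, with Car1 9.13-fold above Car2. Car2 ranked 179 from the top in log2 ratio.

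The other cytosolic genes had few reads or small ratios. Car7, an isoform known from the brain, was the member with the most reads in WT, 86, and had 79 in Exon2KO. Its log2 ratio was -0.15 (-0.61 to 0.31), so no difference was detectable with these reads, and the interval leaves out a 2-fold change in either direction. Car13 had 12 and 23 reads and a log2 ratio of 0.81 (-0.15 to 2.05). Car3, an isoform of low activity typical of muscle and fat, had 4 and 7 reads, at 0.57 (-1.20 to 3.0). For Car13 and Car3 the interval held both no difference and a 2-fold one.

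Car5b (ENSMUSG00000031373, chromosome X, 163976822 to 164027997, minus strand) encodes the mitochondrial isoform found in many tissues. It had 51 reads in WT and 119 in Exon2KO, or 3.25 and 7.44 CPM. The log2 ratio was 1.165 (0.71 to 1.70), an interval that lay above 0 but reached below 2-fold, and the fold without the prior count was 2.29. Car5b was the member just inside the 2-fold threshold, and Car13, at 1.88-fold, was just outside it. Of the 6299 distinct runs of 50 bases in Car5b transcripts, 3.79% also occur in transcripts of other genes, 675 of them, so a part of its reads could have come from elsewhere.

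The members on the cell surface were all near the floor. Car4, which is held to the outer membrane by a lipid anchor and is abundant in absorptive cells of the mouse colon, had 5 reads in WT and 2 in Exon2KO. Its ratio was 2.55-fold lower with an interval of -4.74 to 1.26 on the log2 scale, and it did not reach the minimum of 10 reads. Car9, a membrane enzyme and a classic target of hypoxia-inducible factors, had 12 and 22 reads, at 0.75 (-0.23 to 2.00). Car12, a second membrane enzyme linked to hypoxia, had 19 and 20 reads, at 0.04 (-0.93 to 1.03). For these 3 genes the depth was too low to detect a difference. Gm12454 runs antisense across 1782 bases of Car9 with 11 and 16 reads of its own. The use of strand in counting is not given in the sources used here, so the reads of that pair cannot be told apart.

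Car8, a family member without enzyme activity that binds the receptor for inositol trisphosphate, had 2 reads in WT and 5 in Exon2KO. The ratio was 2.45-fold higher, with an interval of -1.32 to 4.69 on the log2 scale, which includes no difference. It also had fewer than 10 reads in all.

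**Figure D2:**
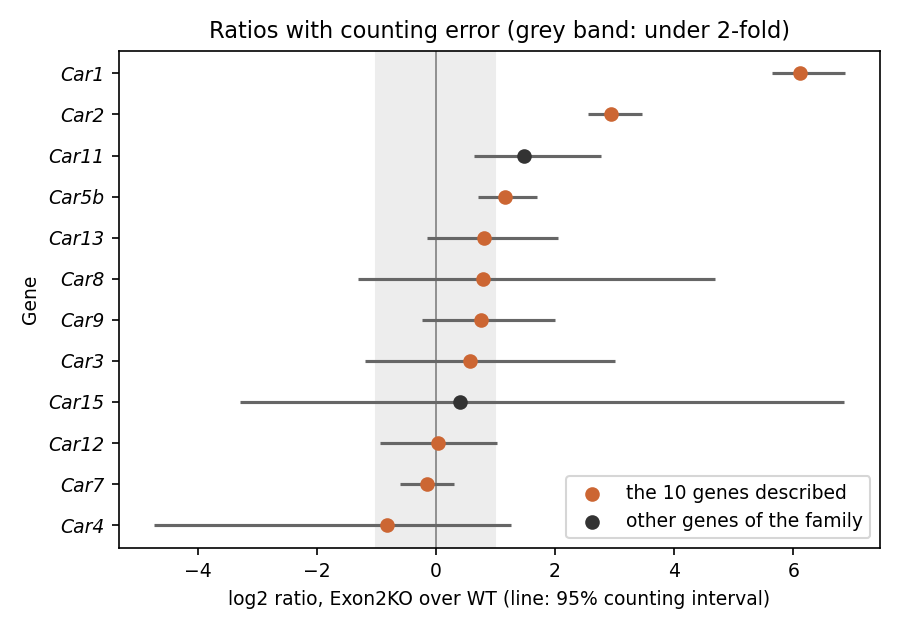
The log2 ratio of Exon2KO over WT (horizontal axis) for the 10 genes and for the 2 other family genes with reads, Car11 and Car15, where lines are 95% counting intervals and the grey band spans ratios under 2-fold. Car1 and Car2 are the points whose whole line lies beyond the band.

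In sum over all 10 genes, WT held 263 carbonic anhydrase reads and Exon2KO 2496, which is 9.32-fold higher (counting interval 8.20 to 10.6). Car1 made up 9.13% of these reads in WT and 73.3% in Exon2KO. Without Car1 the sums were 239 and 666 reads, 2.74-fold higher (2.36 to 3.18). Without Car1 and Car2 they were 191 and 277, 1.42-fold higher (1.18 to 1.72). The difference of the family as a whole therefore lay mostly in 1 gene. Per length, the order of the genes also differed between the libraries. In WT, Car7 (1.499 FPKM), Car2 (1.26) and Car1 (1.22) led, on 86, 48 and 24 reads. In Exon2KO, Car1 (92.2 FPKM) led with 86.5% of the summed FPKM, followed by Car2 (10.1), Car7 (1.37) and Car5b (1.18). A level of 1 FPKM was reached by 3 members in WT and 4 in Exon2KO. The remaining 6 genes stayed between 0.0639 FPKM (Car4) and 0.629 FPKM (Car13) in the Exon2KO library.

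Position was shared by 4 of the members. Car13, Car1, Car3 and Car2 lie in this order within 259 kb of chromosome 3, and the only other loci listed there are 2 pseudogenes, Gm5843 and Gm16399, both with 0 reads. The log2 ratios along the cluster were 0.81 (Car13), 6.11 (Car1), 0.57 (Car3) and 2.94 (Car2). Car3 ends 13.8 kb before the start of Car2 and had only 7 reads in the Exon2KO library beside the 389 of Car2. The nearest genes with reads before the cluster, 1810022K09Rik (1312 and 1426 reads) and E2f5 (265 and 284), had log2 ratios of 0.09 (-0.02 to 0.20) and 0.07 (-0.17 to 0.32). Lrrcc1, further out on that side, had 213 and 264 reads, at 0.28 (0.02 to 0.55), an interval above 0. The flanking genes on that side thus had ratios well below those of Car1 and Car2. The few reads of Car3 and Car13 gave wide intervals, and that of Car3 reached past the ratio of Car2. Car1 transcripts share 13.4% of their runs of 50 bases with Gm5843 and none with another gene, and Car2, Car3 and Car13 share none at all.

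**Figure D3:**
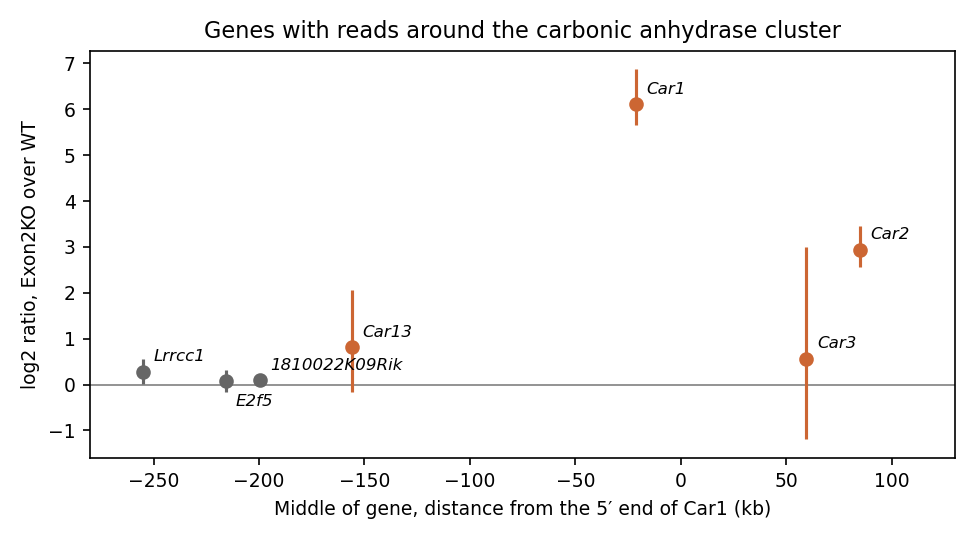
The log2 ratio of Exon2KO over WT for each gene with reads in and around the chromosome 3 cluster, against the distance in kb of the middle of the gene from the 5′ end of Car1, with 95% counting intervals as bars and cluster members in orange. Car1 (6.11) and Car2 (2.94) stand above the flanking genes, while Car3, which lies between them, is at 0.57 with a wide interval.

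RefSeq promoter windows on GRCm38.p6, which run from 250 bases before to 50 after a gene's start, were held for 5 of the 10 members (Car4, Car5b, Car7 with 3 windows, Car9 and Car12) and not for Car1, Car2, Car3, Car8 and Car13. Car9 and Car4 are shown because, of these 5, they are the ones that hold ACGTG, the core of the hypoxia response element, on either strand. In lower case with the matches in capitals, they read 5′ to 3′ on the plus strand, for Car9 at chr4:43506776-43507075 and for Car4 at chr11:84957504-84957803.
Car9: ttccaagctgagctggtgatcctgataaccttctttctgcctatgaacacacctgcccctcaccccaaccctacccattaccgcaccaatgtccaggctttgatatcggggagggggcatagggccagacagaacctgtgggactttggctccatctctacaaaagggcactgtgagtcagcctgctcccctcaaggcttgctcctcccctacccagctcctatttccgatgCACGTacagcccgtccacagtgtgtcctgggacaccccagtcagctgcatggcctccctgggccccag
Car4: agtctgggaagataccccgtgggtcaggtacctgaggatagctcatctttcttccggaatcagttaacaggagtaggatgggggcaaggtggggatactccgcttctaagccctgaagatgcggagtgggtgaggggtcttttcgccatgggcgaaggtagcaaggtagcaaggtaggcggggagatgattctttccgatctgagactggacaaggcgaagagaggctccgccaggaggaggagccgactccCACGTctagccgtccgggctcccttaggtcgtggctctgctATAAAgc
In Car9 the capitals mark ACGTG on the opposite strand at bases 233 to 237 of the window, just before the RefSeq start. GENCODE M21 starts Car9 further upstream, at 43506966, and by that start the match lies inside the gene. In Car4 the capitals mark ACGTG on the opposite strand at bases 253 to 257 and TTTAT, the core bound by caudal homeobox factors, on the opposite strand at bases 294 to 298. Of all 32851 windows of this length, 19.6% hold ACGTG and 40.0% hold TTTAT on either strand. The GATA factor motif was searched as TGATAAG (2.29% of all windows) and AGATAAG (3.04%), and 1 of the Car7 windows held the latter. A match describes letters in the window and is no evidence of binding. Both genes shown had few reads, 12 and 22 for Car9 and 5 and 2 for Car4.

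The other 6 genes of the family added little. Car11, which encodes a protein without enzyme activity, had 11 and 35 reads, at 1.49 (0.63 to 2.77), and was the single gene of this list with at least 10 reads and at least 2-fold higher. Car15 had 1 and 2 reads. Car5a, Car6, Car10 and Car14 had 0 reads in both libraries, and a count of 0 allows up to 0.191 CPM in WT and 0.188 CPM in Exon2KO (3 reads).

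Transporters that carry bicarbonate, protons or lactate work beside these enzymes. Of the 20 listed, 15 had at least 10 reads, with 4 at least 2-fold higher and 1 lower, against 10.9% and 9.39% of all loci compared. Their median log2 ratio was 0.23, against 0.0035 over all loci compared. The lower one was Slc16a3, a lactate and proton exporter, with 858 and 316 reads, at -1.46 (-1.66 to -1.28). The 4 higher ones, named here after their values were seen, all had few reads. Slc26a3, the chloride and bicarbonate exchanger of the colon surface, had 4 and 40 reads, and Slc9a3, a sodium and proton exchanger of the same membrane, had 2 and 9, with an interval that includes no difference (-0.13 to 5.39). Cftr and Atp12a had 0 reads in WT and 11 and 10 in Exon2KO, and the lower counting limits of their log2 ratios were 1.301 and 1.14. The transporters with the most reads had smaller ratios: Bsg, the partner protein of lactate carriers, was at -0.11, Slc4a7, a sodium bicarbonate carrier, at -0.43, and Slc16a1, a lactate carrier, at -0.42.

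The hypoxia response is the pathway known to drive Car9 and Car12. All 16 listed genes of it had at least 10 reads, with 0 at least 2-fold higher and 2 at least 2-fold lower, against 10.9% and 9.39% of all loci compared. The median log2 ratio was -0.38, while the summed level was 2835 CPM in WT and 2964 in Exon2KO, most of it from Ldha (1741 and 2066 CPM). The 2 lower ones were Egln3, a prolyl hydroxylase that marks hypoxia-inducible factors for decay, at -1.14 (-1.26 to -1.03), and Epas1, which encodes HIF-2 alpha, at -1.88 (-2.08 to -1.70). Hif1a was at 0.12 (0.07 to 0.17), with 6083 and 6746 reads.

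Genes of gut epithelium stood higher in the Exon2KO library together with Car1 and Car2. Of 12 absorptive colon markers with at least 10 reads, 8 were at least 2-fold higher and 0 lower, against 10.9% and 9.39% of all loci compared, with a median log2 ratio of 1.81. Slc26a3 and Slc9a3, given above among the higher transporters, are also among these higher markers. Of 10 general epithelial markers, 9 were higher and 0 lower, against the same shares of all loci, with a median of 2.51. Whole intervals lay past 2-fold higher for 7 genes of each list, against 3.44% of all loci compared. Summed over all listed markers, absorptive genes went from 36.1 to 186 CPM and general epithelial genes from 93.3 to 380 CPM. Aqp8 and Mep1a were at 0 in WT (12 and 13 reads in Exon2KO), and Dhrs9 was at 0 in Exon2KO (8 reads in WT). In bulk RNA, more cells of a type and more RNA per cell cannot be told apart. The part of epithelial RNA in the Car1 and Car2 results was not tested.

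Within the Exon2KO library, Car1 at 92.2 FPKM was above the epithelial keratins Krt8 (51.5 FPKM) and Krt19 (48.5), the lectin gene Lgals4 (37.6) and Lypd8 (79.1), an absorptive cell gene for a secreted antibacterial protein. In WT it was below all of these, at 0.235 of the FPKM of Krt8, against 1.79 in Exon2KO. The log2 ratio of Car1, 6.11, exceeded those of the listed epithelial markers that had at least 10 reads in all and any in WT, while the ratios of Aqp8 and Mep1a, at 0 in WT, have no upper limit. The highest measured one was that of Cyp2c55, a cytochrome P450 gene, with 3 and 122 reads, at 4.61 (3.74 to 7.62), whose interval reaches past the ratio of Car1. Krt19 followed at 4.08 (3.79 to 4.46). Outside these lists, the intestinal gene Fabp2 had 0 and 169 reads and a log2 ratio of 6.40, above that of Car1. The claudin genes Cldn7 (38 and 353 reads) and Cldn3 (29 and 163), which encode tight junction proteins, were at 3.12 and 2.39. Phgr1 (17 and 166 reads) was at 3.12, while Emp1 (241 and 578) and the keratin gene Krt18 (118 and 277) were at 1.23 and 1.19. By contrast, the log2 ratio of Car2, 2.94, lay within the span of the epithelial markers. Relative to single markers, Car2 moved in both directions. It went from 0.243 of the FPKM of Krt8 in WT to 0.196 in Exon2KO, from 0.454 to 0.208 of Krt19 and from 0.197 to 0.128 of Lypd8. It went from 0.211 to 0.268 of Lgals4, from 0.114 to 0.198 of Guca2a and from 0.0517 to 0.538 of Epcam.

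The epithelial genes were not uniform. Epcam, an adhesion molecule of all gut epithelium, had 782 and 609 reads, at -0.39 (-0.54 to -0.23), and was the 1 gene of the 22 with a log2 ratio below 0. Guca2a, a gut peptide gene, had 103 and 481 reads, at 2.18. Car4, also an absorptive cell gene, had 5 and 2 reads, below the read minimum. Its interval (-4.74 to 1.26) includes no difference, so nothing is read from its ratio. Goblet cell markers summed to 24.8 CPM in WT and 24.3 in Exon2KO, with a median log2 ratio of -0.64. Of the 8 compared, 1 was at least 2-fold higher (Zg16, 41 and 137 reads) and 3 lower, among them Clca1 (105 and 7 reads). The shares of all loci compared were 10.9% and 9.39%. Tuft and enteroendocrine markers summed to 1.53 and 0.688 CPM, and 4 of the 6, Trpm5, Pou2f3, Chgb and Neurod1, were at 0 in both libraries. Chga, the 1 gene of this list with at least 10 reads, carried most of both sums. It had 23 and 11 reads, at -0.97 (-2.27 to 0.0037), an interval that includes no difference.

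Red blood cells carry much Car1 and Car2. The sum over the 8 listed genes of red cells found in the table was 1.34 CPM in WT and 3.31 in Exon2KO. Alas2, the heme synthesis enzyme specific to the red cell lineage, had 0 reads in both libraries. The haemoglobin gene Hba-a1 had 1 and 30 reads (0.0781 and 2.32 FPKM), at 3.40 (2.29 to 10.2), and Hbb-bs had 4 and 9. Of the 4 listed genes with at least 10 reads, 3 were at least 2-fold higher (Hba-a1, Hbb-bs and Epb42) and 1, Klf1, lower, with 11 and 4 reads, against 10.9% and 9.39% of all loci compared. The intervals of Hbb-bs, Epb42 and Klf1 include no difference. These genes are named after their values were seen. The part of red cell RNA in the Car1 and Car2 results was not tested.

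Markers of the other cell types that could enter the sort were summed in the same way, though single abundant genes carry some of these sums. Each count of genes at least 2-fold higher or lower stands against 10.9% and 9.39% of all loci compared. The sum went from 44.4 to 53.1 CPM for macrophages and monocytes (0 higher and 1 lower of 6 with enough reads). It went from 80.4 to 78.1 CPM for endothelial and stromal cells (3 higher, 0 lower of 10), where Cdh5, an endothelial cadherin, had 0 and 15 reads. It went from 7816 to 7285 CPM for B and plasma cells (1 higher, 2 lower of 6), of which Jchain alone made up 7652 and 7113 CPM. The B cell gene Ms4a1 was lower, with 47 and 10 reads, and Sdc1, a plasma cell surface gene, was higher, with 510 and 1213. Mast cell, basophil and eosinophil markers summed to 30.1 and 18.1 CPM, with 6 of 10 genes at 0 in both libraries and 1 of the 3 compared, Kit, lower (149 and 53 reads). Fat and muscle markers, given for Car3, summed to 1.47 and 2.00 CPM, with 1 of 2 compared higher. T cell and Treg markers summed to 13705 and 14388 CPM, of which Ctla4 alone made up 5056 and 8270, and their median log2 ratio was -0.30, with 1 higher (Foxp3) and 3 lower of 12 (Ikzf2, Tnfrsf18 and Cd5). With total counts the log2 ratio of Cd5 was -0.94, and it was then no longer at least 2-fold lower. Ikzf2, which encodes Helios, had 8476 and 440 reads. Single genes are named here, as Ldha is above, after their values were seen.

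**Figure D4:**
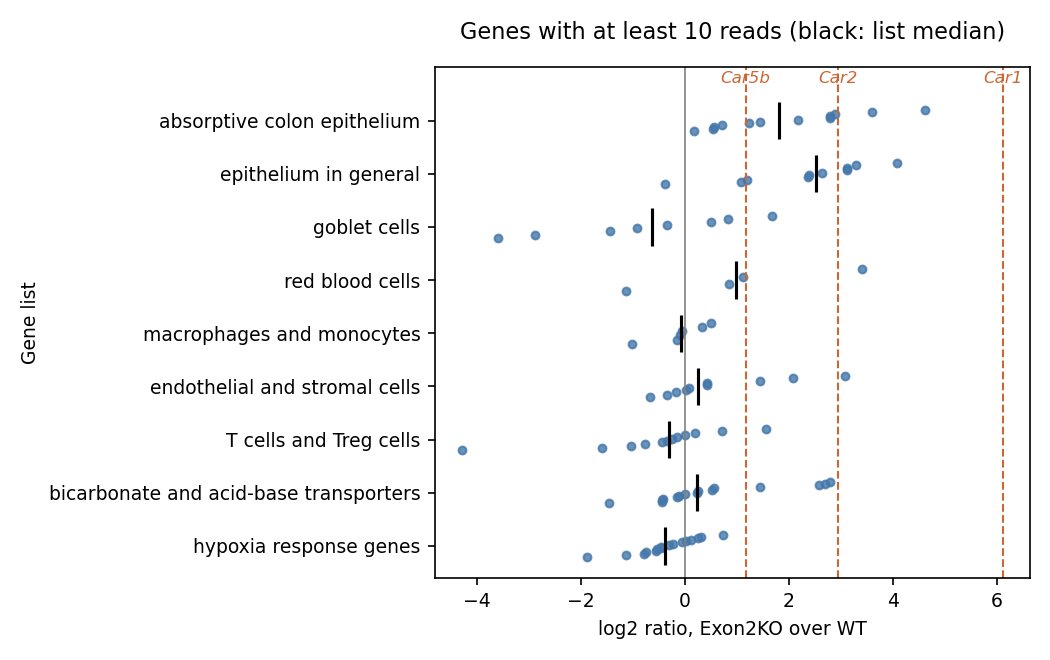
The log2 ratio of Exon2KO over WT (horizontal axis) for each gene with at least 10 reads in 9 marker and pathway lists (rows), where black bars are list medians and dashed orange lines mark Car5b, Car2 and Car1. Ratios include the prior count of 2, also for genes at 0 in WT. The line of Car1 lies to the right of every listed gene drawn, and that of Car2 lies among the epithelial genes.

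With 2 libraries, likeness of pattern reduces to likeness of ratio. Among 8535 protein-coding genes that reached 100 reads in either sample, Car1 ranked 7 from the top. Close above it were Fabp2 (0 and 169 reads), which encodes the intestinal fatty acid binding protein, and Tmeff2 (0 and 237). Next below were Hsd3b3 (0 and 126), the cytokine gene Il17a (190 and 12014) and Mettl7b (1 and 135). Fabp2, Tmeff2 and Hsd3b3 had no WT reads at all, whereas Car1 had 24, so its ratio is measured and not bounded. Mettl7b has a counting interval of 4.55 to 12.4 and its place in the order is loose.

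**Figure D5:**
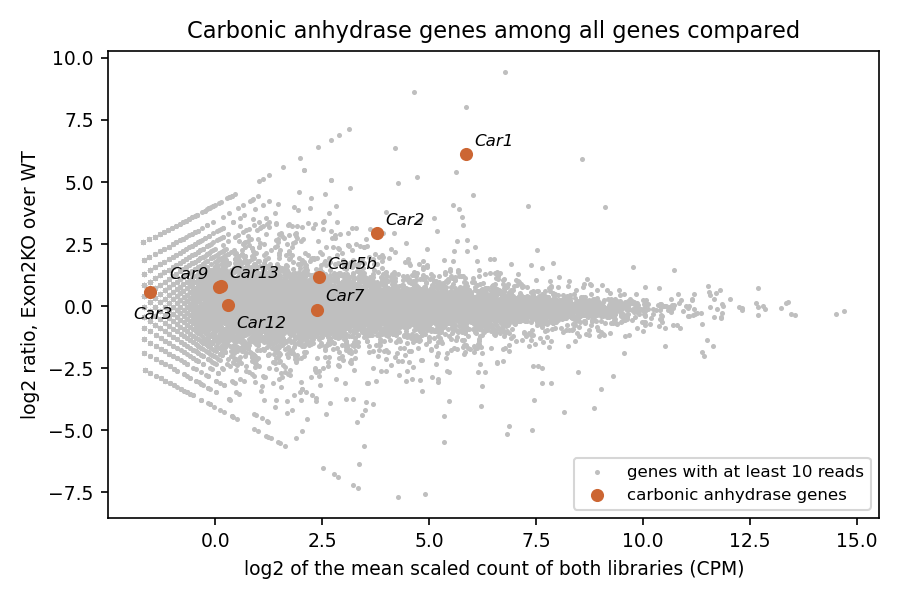
The log2 ratio of Exon2KO over WT against the log2 of the mean CPM of both libraries, with each grey point 1 of the 17363 loci with at least 10 reads and the 8 carbonic anhydrase genes among them in orange. Car1 and Car2 lie at the upper edge of the cloud, and Car3, Car7, Car9, Car12 and Car13 lie inside it.

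The authors' deposited table gives log2 fold changes of 6.22 for Car1, 2.99 for Car2 and 1.19 for Car5b. In the authors' deposited table, Car7 is at -0.15, Car12 at 0.05 and Car4 at -1.30. These come from the same counts, and each of the 10 has the sign of the ratio given above.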

How the data were processed

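Gene-level RNA sequencing data of 2 samples, 1 WT and 1 Exon2KO, were used, with groups from the genotype label. The authors deposited raw read counts and FPKM per gene, a scaled count signal and a log2 fold change with its p-value. The signal and the p-value were not used. Per the submitters' processing notes, HISAT2 2.0.5, StringTie 1.3.3b, featureCounts 1.5.0-p3, DESeq2 1.16.1 and build mm10 were named, with no roles given. The coordinates of all 10 members are identical in GENCODE M21 (GRCm38).

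From the counts, libraries were scaled by TMM (edgeR 4.0.16, R 4.3.3; WT factor 0.964, Exon2KO factor 1.04). As each genotype has 1 library, and members chosen on this contrast, no test was run. Called means at least 2-fold with at least 10 reads over both libraries, with a count of 0 set to 3 reads. Intervals came from scipy 1.17.1 and the ratio was tested on simulated data. The members and the lists were chosen with earlier results of these data known. Named by rule were all members, list genes called with at least 100 reads in 1 library and the 3 genes next above and below Car1 in ratio, of which 1 is not reported here. The rule also took the 3 genes with the most reads from lists without such a gene, which was followed only in part. Other list genes were named after their values were seen. Car4 had too few reads to be ranked. Runs of 50 bases were compared over GENCODE M21 transcripts on both strands. No protein sequences were used here.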

Additional observations from a re-analysis of the deposited data

How the results depend on the processing

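Scaling by DESeq2 size factors (DESeq2 1.42.0), upper quartile, total counts or a TMM that omits immunoglobulin, mitochondrial and haemoglobin loci left 0 members at least 2-fold lower and 8 of 10 above 0. In the main setting, 50.3% of all loci compared were above 0, and 3 members had a whole counting interval above 0. The number of members at least 2-fold higher was 3 under each scaling except total counts, which gave 4, with Car13 added. Total counts shift the median log2 ratio of all loci compared from 0.0035 to 0.108, and 60.3% of calls are then higher, against 53.8% with TMM. Without the read minimum, 4 members are at least 2-fold higher (Car8 is added) and 1 (Car4) lower, and 3559 loci are higher and 3434 lower, against 1899 and 1631. A minimum of 50 reads gives 699 and 719 loci, 0 other family genes and 1 transporter. A threshold of 1.5 gives 6 members higher, 3112 and 2817 loci and 5 hypoxia genes. A threshold of 4 leaves 675 and 568 loci, 0 other family genes, 2 transporters and 0 hypoxia genes, as thresholds imply. Whole intervals past 2-fold leave 598 and 576 loci and 0 other family genes, and protein-coding genes alone 1084 and 1059, since fewer loci are tested.

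The ratios of 63 named genes (those with at least 10 reads, and Car4 and Car8) were recomputed over 7 settings (scalings, prior counts of 0.5 or none, and deposited FPKM), giving 441 values, of which 0 changed sign among called genes, and 1 among the others (Jchain, with total counts). Outside their counting interval lay 10 with total counts, 7 with deposited FPKM and 2 with DESeq2 size factors, and 0 of these were of members. With deposited FPKM, the log2 ratios of Cftr (0.92), Slc9a3 (0.72), Epb42 (0.60) and Hbb-bs (0.96) were under 2-fold. Scaled reads per kilobase, an alternative chosen after seeing the data, place 4 members at 1 or more in Exon2KO, as FPKM does. No paired analysis was possible because each genotype has 1 library, and no library could be left out. Depth limits Car3, Car4, Car8, Car9, Car12 and Car13.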
